A study of Mus musculus with 60 samples.

Results

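The genes described here are 50 genes of DNA damage signalling and repair, matched by symbol among the 49315 genes counted in each library of mouse whole blood. They were listed by function and not by their values, though with earlier results of these data known, and fall into 7 repair pathways. All 50 were matched and all 50 passed the filter on low counts in every comparison. The blood came from 60 male CD2F1 mice with no transgene or deletion, in 10 groups of 6 mice, each mouse bled once. They were aged 5 to 6 weeks when purchased, before quarantine and dosing. Vehicle or BIO 300, an oral powder of the isoflavone genistein, was given for 6 days in 12 doses at 50, 100 or 200 mg/kg. Blood was taken from vehicle-treated mice and mice of each dose once 24 h had passed since dosing ended (Day 0), and from separate mice once 48 h had passed (Day 1). A further pair of groups, given vehicle or 200 mg/kg, received 9.2 Gy total body irradiation (TBI) from a cobalt source on Day 0, and their blood was taken on Day 1 when 24 h had passed since TBI. Mice were housed 3 to a cage and irradiated 6 to a box, and how cages and boxes were divided among the groups was not given in the sources used here. The p-values measure the spread between mice of 1 experiment.

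DNA breaks are sensed by the kinases Atm and Atr, which signal through Chek1 and Chek2 and mark the chromatin around the break. A double-strand break can then be rejoined directly (end joining) or copied from the sister chromatid after its ends are cut back (homologous recombination), the latter mainly in cells that replicate their DNA. Damaged bases and single-strand breaks are handled by base excision repair, and crosslinks by the Fanconi anaemia genes. Blood combines resting lymphocytes, which are highly sensitive to radiation, with neutrophils, platelets and reticulocytes, the youngest red cells, so that the RNA of a repair gene in whole blood reflects which cells are present as well as what each cell makes.

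Promoters are shown for 5 genes on which the results below turn: 3 that were higher at 200 mg/kg on Day 1 (Bard1, Rad52 and Chek2), the gene that was higher after irradiation both with and without BIO 300 (Dclre1c), and the gene with the largest fall after irradiation of vehicle-treated mice (Parp1). Each 300-base window runs from 250 bases before to 50 bases after the gene's start in RefSeq's annotation of GRCm38.p6 and is written 5′ to 3′ on the strand of the gene. Capitals mark matches, on either strand, to the letters of E2F sites (TTCCCGC or TTGGCGC), of the cell cycle element CHR (TTTGAA) and of the NF-Y box (CCAAT). The windows are chr1:71102923-71103222 (minus strand) for Bard1, chr6:119902448-119902747 (plus) for Rad52, chr5:110839733-110840032 (plus) for Chek2, chr2:3423881-3424180 (plus) for Dclre1c and chr1:180568641-180568940 (plus) for Parp1.
Bard1: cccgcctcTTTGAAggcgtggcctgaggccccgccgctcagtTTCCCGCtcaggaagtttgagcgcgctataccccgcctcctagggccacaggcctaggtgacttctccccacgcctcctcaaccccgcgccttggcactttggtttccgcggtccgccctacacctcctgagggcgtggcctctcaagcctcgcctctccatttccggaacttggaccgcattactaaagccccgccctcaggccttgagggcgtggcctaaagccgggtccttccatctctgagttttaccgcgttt
Rad52: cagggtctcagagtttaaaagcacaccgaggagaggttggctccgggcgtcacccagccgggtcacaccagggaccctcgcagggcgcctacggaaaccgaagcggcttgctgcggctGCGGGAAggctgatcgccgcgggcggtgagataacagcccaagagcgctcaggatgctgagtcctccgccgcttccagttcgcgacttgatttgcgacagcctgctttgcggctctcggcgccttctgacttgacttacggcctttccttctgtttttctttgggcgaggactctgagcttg
Chek2: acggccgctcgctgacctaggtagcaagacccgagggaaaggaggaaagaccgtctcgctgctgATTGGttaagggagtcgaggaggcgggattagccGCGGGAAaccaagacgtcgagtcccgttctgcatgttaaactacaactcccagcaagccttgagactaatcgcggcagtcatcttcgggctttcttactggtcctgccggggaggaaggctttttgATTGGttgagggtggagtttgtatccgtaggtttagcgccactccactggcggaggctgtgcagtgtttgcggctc
Dclre1c: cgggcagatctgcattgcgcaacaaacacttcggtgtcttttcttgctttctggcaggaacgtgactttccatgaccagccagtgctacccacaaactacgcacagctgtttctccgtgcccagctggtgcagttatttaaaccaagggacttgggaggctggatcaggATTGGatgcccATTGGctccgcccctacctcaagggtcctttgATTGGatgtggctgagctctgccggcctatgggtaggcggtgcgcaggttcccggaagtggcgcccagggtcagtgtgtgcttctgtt
Parp1: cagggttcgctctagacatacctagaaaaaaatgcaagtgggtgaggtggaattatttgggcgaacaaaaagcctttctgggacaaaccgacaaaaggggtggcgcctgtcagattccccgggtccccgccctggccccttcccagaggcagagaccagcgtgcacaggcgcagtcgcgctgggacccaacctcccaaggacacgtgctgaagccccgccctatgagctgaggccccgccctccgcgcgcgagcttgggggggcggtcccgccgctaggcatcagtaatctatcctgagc

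The E2F letters lay in the windows of Bard1, Rad52 and Chek2, the NF-Y box was found in those of Chek2 and Dclre1c, and none of the letters was found in that of Parp1. An entry was found for 40 of the 50 genes. The E2F letters were present for 20 of these 40 (50.0%), against 7.79% of the 27025 genes with a window. The NF-Y box was present for 21 (52.5%, against 41.1%) and the CHR letters for 3 (7.5%, against 20.2%). A half-site for the damage-responsive factor p53 was searched as the pattern RRRCWWGYYY. There R is A or G, W is A or T, and Y is C or T. It was present for 1 gene, Fanca (2.5%, against 9.55%). A complete p53 site, taken as a pair of such half-sites close together, was present for 0 of 40 (against 0.074%). A match describes the letters of a window and is not evidence of binding.

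Total counts per mouse ranged from 15099415 to 45589415, with a median of 24877993.5. Levels are given as CPM (a gene's share of the counts, scaled to a fixed library size) on the TMM scale of all 60 mice, and the error of a log2 fold change is its standard error. TMM sets the scale of a library by the bulk of its genes. The scaling factor varied between groups, with a Day 1 median of 0.538 (0.415 to 0.646) for 200 mg/kg and of 0.558 (0.485 to 0.68) for 100 mg/kg, against 1.448 (1.153 to 1.634) for vehicle on Day 1, and it reached 1.896 (1.393 to 2.021) at 50 mg/kg on Day 0. Each library was therefore also scaled by its total counts. On that scale the Day 1 median log2 fold change of all genes was -1.96 for 200 mg/kg and -1.76 for 100 mg/kg. It was 0.69 for 50 mg/kg on Day 0, -0.28 for irradiated against unirradiated vehicle on Day 1, and 1.31 for irradiated against unirradiated mice at 200 mg/kg. Albumin, a liver protein, was above 100 CPM on the total-count scale in 10 libraries, at least 1 in every group except 50 mg/kg on Day 1, and the values without these libraries are given below.

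Lists of marker genes were read in the same mice as the mean log2(CPM + 1) of the list. The p53 targets, which respond to DNA damage, lay between 4.61 and 4.96 in irradiated vehicle-treated mice and between 4.82 and 5.09 in irradiated mice given 200 mg/kg, above the 3.22 to 3.35 of unirradiated vehicle-treated mice on Day 1, and 14 of 16 targets were higher and 1 lower after irradiation of vehicle-treated mice. On the TMM scale the irradiated groups therefore differed from every unirradiated group, in which no mouse exceeded 3.63. With total counts irradiated vehicle-treated mice (4.09 to 5.08) overlapped mice of the lowest dose on Day 0 (3.61 to 4.12). They lay above every other unirradiated group, and irradiated mice given 200 mg/kg (4.51 to 5.23) lay above all unirradiated mice. B cell markers fell in the order of vehicle on Day 1 (6.53 to 7.15), 200 mg/kg on Day 1 (3.93 to 5.68) and irradiated vehicle (2.76 to 3.94). T cell markers lay between 5.30 and 5.64 in vehicle-treated mice on Day 1, 2.57 and 4.39 at 200 mg/kg on Day 1 and 1.92 and 3.57 in irradiated vehicle-treated mice. B and T cell markers were thus lower than vehicle in both settings without overlap, whereas NK cell markers at 200 mg/kg on Day 1 (2.35 to 4.87) overlapped those of vehicle (3.41 to 4.37). Red cell and reticulocyte markers lay between 10.5 and 11.12 in vehicle-treated mice on Day 1, 12.42 and 13.52 at 200 mg/kg on Day 1, and 8.8 and 12.19 after irradiation. Cell cycle genes lay between 3.2 and 3.79, between 4.55 and 5.37, and between 2.62 and 4.69 in the same 3 groups. Except where total counts are named, these values are on the TMM scale. With total counts the cell cycle genes lay between 3.78 and 4.09 with vehicle on Day 1 and between 3.81 and 4.21 at 200 mg/kg on Day 1, and overlapped. In bulk blood, fewer cells of a type and less RNA per cell cannot be told apart.

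**Figure D1:**
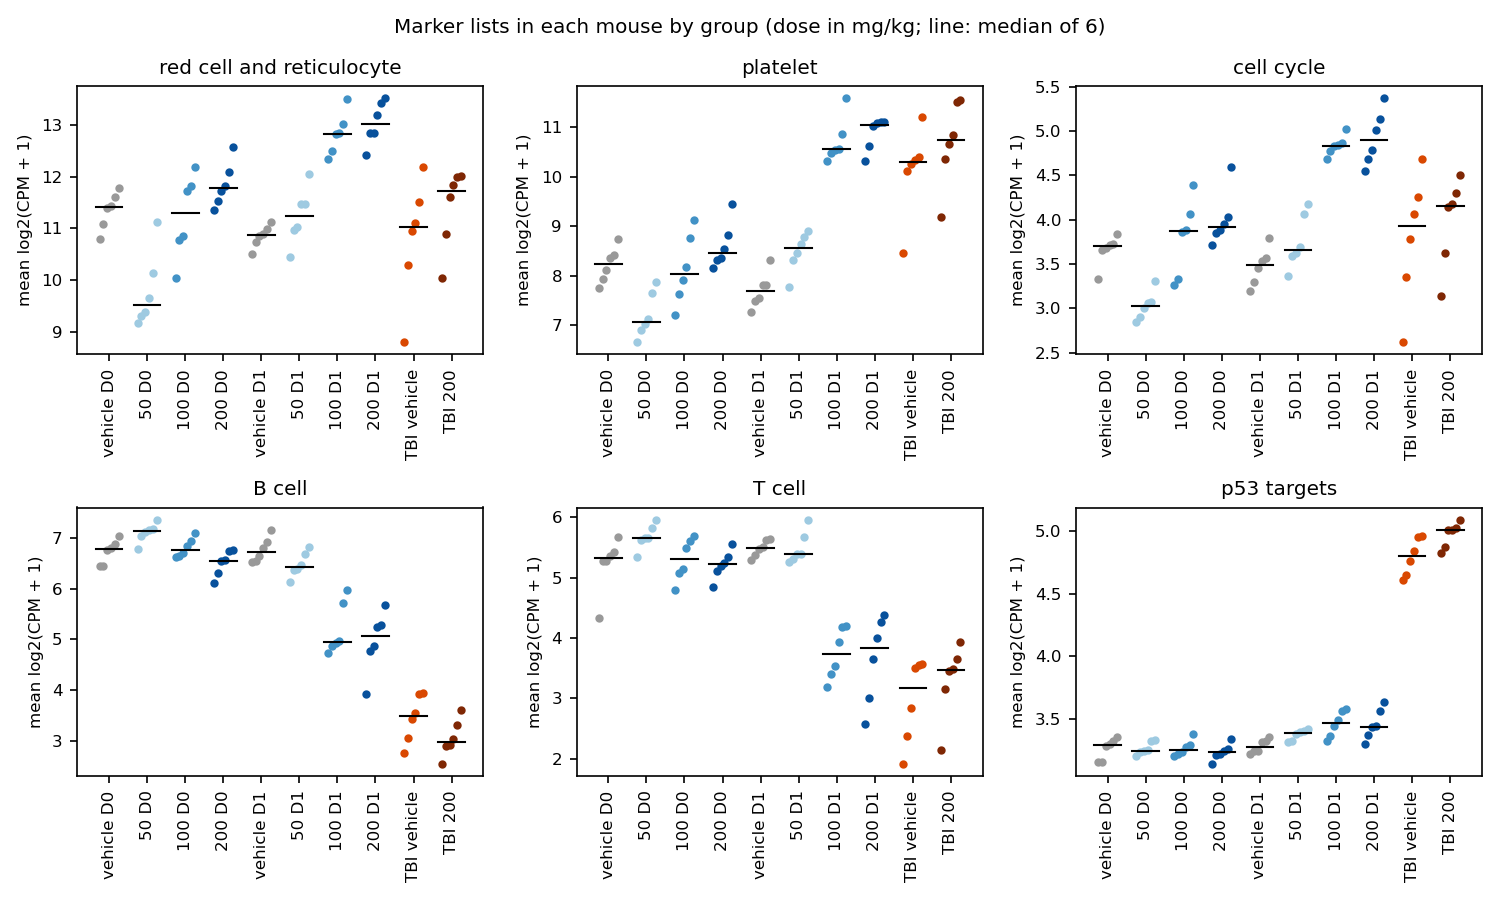
Mean log2(CPM + 1), on the TMM scale, of marker lists in each of 60 mice (points), by group on the horizontal axis, with the median of 6 mice as a line. The p53 targets separate the irradiated groups (4.61 to 5.09) from all unirradiated mice (at most 3.63). With total counts irradiated vehicle-treated mice (4.09 to 5.08) overlap those of the lowest dose on Day 0 (3.61 to 4.12) in this list. B and T cell markers are low after irradiation and at 100 and 200 mg/kg on Day 1. Red cell and cell cycle lists are high at 100 and 200 mg/kg on Day 1. There the cell cycle list overlaps that of vehicle with total counts.

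In unirradiated, vehicle-treated blood on Day 1, the level per kilobase of exon spanned from 0.191 CPM per kb for Rnf8, a ubiquitin ligase that marks broken chromatin, to 9.82 CPM per kb for Parp1, which senses single-strand breaks. After Parp1 came Bard1, the partner of Brca1 (9.10), the break-marking histone H2afx (7.46), the strand-annealing protein Rad52 (7.14) and the helicase Wrn (6.92). The lowest after Rnf8 were the nuclease Exo1 (0.216) and the checkpoint kinase Chek1 (0.271). Between the vehicle groups of Day 0 and Day 1, 0 of the 50 genes passed an adjusted p of 0.05 in edgeR's test (0.0% of all genes). At an unadjusted p under 0.05 there were 6, and DESeq2 called 2 (3.19% of all genes).

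On the TMM scale, irradiation of vehicle-treated mice was followed by opposite changes in different pathways. Of the base excision genes 6 of 8 fell, as did 3 of 3 mismatch and nucleotide excision genes and the upstream kinases Atm and Atr. Several genes of homologous recombination and the checkpoint kinases Chek1 and Chek2 rose. Of these rises, those of Rad52, Rad51c and Chek2 were also called with total counts. Against unirradiated vehicle-treated mice on Day 1, 33 of the 50 genes were called at an adjusted p under 0.05, of which 11 were higher and 22 lower. Of all 25146 genes tested, 46.8% were called, 24.4% higher and 22.4% lower. The median log2 fold change was -0.23 over the 50 genes and 0.09 over all genes.

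The largest fall was that of Parp1. It lay between 35.2 and 59.4 CPM (median 52.0) in vehicle-treated mice on Day 1 and between 4.56 and 20.0 CPM (median 6.36) in irradiated vehicle-treated mice. The groups did not overlap, and the highest irradiated mouse stood well above the other irradiated mice. The log2 fold change was -2.55 ± 0.34 (SE, n = 6 mice in each group, adjusted p = 8.70e-05), a 5.85-fold lower level. Of the 8 base excision genes, 6 fell and 0 rose, among them Parp2, the second break-sensing polymerase (-1.33 ± 0.22), the endonuclease Apex1 (-1.26 ± 0.42), the scaffold Xrcc1 (-1.08 ± 0.17), the polymerase Polb (-0.64 ± 0.19) and the glycosylase Ogg1 (-0.50 ± 0.19). The DNA ligases Lig1 and Lig3 did not pass the test (-0.44 ± 0.25 and -0.27 ± 0.17).

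All 3 genes of mismatch and nucleotide excision repair fell. Ercc4, the nuclease subunit that cuts beside bulky lesions, lay between 10.5 and 13.6 CPM (median 12.4) without and between 1.94 and 7.58 CPM (median 4.21) with irradiation, without overlap (-1.53 ± 0.25, adjusted p = 0.000387). Its partner Ercc1 had a log2 fold change of -1.43 ± 0.27 and the mismatch sensor Msh6 of -1.25 ± 0.19.

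Among the 10 signalling genes, 2 rose and 5 fell. Atm lay between 27.3 and 43.2 CPM (median 38.4) in vehicle-treated mice and between 8.58 and 18.9 CPM (median 11.0) after irradiation, and did not overlap (-1.64 ± 0.19, adjusted p = 3.34e-05). Atr (-1.27 ± 0.19), Trp53bp1, which steers breaks towards end joining (-1.08 ± 0.16), the Atr activator Topbp1 (-0.71 ± 0.17) and the ubiquitin ligase Rnf168 (-0.42 ± 0.14) also fell. Their downstream kinase Chek2 moved the other way. It lay between 5.26 and 7.55 CPM (median 6.70) without and between 5.80 and 35.0 CPM (median 18.1) with irradiation (2.82-fold higher, adjusted p = 0.00265). The irradiated mice spread widely, and the lowest of them lay within the range of vehicle. Chek1 had a log2 fold change of 0.88 ± 0.30, and Mdc1, H2afx and Rnf8 did not pass the test.

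On the TMM scale 5 of the 11 homologous recombination genes rose and 1 fell, with a median log2 fold change of 0.75. With total counts only Rad52 and Rad51c were still called higher. Rad52 lay between 34.5 and 53.8 CPM (median 41.0) without and between 46.4 and 250 CPM (median 158) with irradiation (1.86 ± 0.32, adjusted p = 0.000498). The groups overlapped only in the lowest irradiated mouse, mouse 51, which was also the lowest for Chek2 and the highest for Parp1. Rad51c had a log2 fold change of 1.35 ± 0.37, Bard1 of 0.99 ± 0.37, the tumour suppressor Brca2 of 0.81 ± 0.29, and Wrn of 0.75 ± 0.29 (adjusted p = 0.0490). The exception was Xrcc2 with -0.98 ± 0.33. The 5 genes that did not pass were Brca1, Palb2, Rad54l, Blm and Xrcc3, at 0.40 to 0.77.

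Of the genes that cut back the ends of a break, the 3 members of one complex, Mre11a (-0.85 ± 0.12), Rad50 (-0.73 ± 0.18) and Nbn (-0.74 ± 0.27), fell, and the nucleases Exo1 (0.47 ± 0.48) and Rbbp8 (0.40 ± 0.20) did not pass the test. End joining was divided, with 2 genes higher and 3 lower. The ligase Lig4 (-0.74 ± 0.17) and the Ku subunits Xrcc5 (-0.80 ± 0.24) and Xrcc6 (-0.60 ± 0.19) fell, and the accessory factor Nhej1 rose (0.94 ± 0.31). Dclre1c, which encodes the end-trimming nuclease Artemis, was the only one of the 50 genes whose irradiated mice all lay above the vehicle-treated mice on the TMM scale, whereas 12 genes lay wholly below (11.0% and 14.0% of all genes). With total counts these numbers were 0 and 20 (6.05% and 17.4%). Of the 5 Fanconi anaemia genes, Fancd2 (1.02 ± 0.34) and Fanca (0.74 ± 0.26) rose and Fancm fell (-0.91 ± 0.20).

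All 22 falls were also called with libraries scaled by total counts, which shifted all genes in that direction (median -0.28, against 0.09 with TMM). Of the 11 rises, 4 were called on that scale (Dclre1c, Chek2, Rad52 and Rad51c), and the other 7 kept their sign, so that the split of calls moved from 11 higher and 22 lower to 4 higher and 28 lower (15.3% and 27.5% of all genes). The higher calls rested on few mice. They numbered 18 without irradiated mouse 51, which had the highest albumin of all libraries. They numbered 4 without vehicle mouse 26 or irradiated mouse 54. The share of all genes was not counted in these fits. Without all libraries of high albumin the split was 20 higher and 21 lower (27.8% and 31.6% of all genes). B cell markers (8 of 8 lower), T cell markers (8 of 8 lower) and NK cell markers (5 of 6 lower) fell in the same comparison, while neutrophil (6 of 8 higher, 1 lower), platelet (7 of 7 higher), cell cycle (8 of 20 higher, 2 lower) and monocyte markers (2 higher and 2 lower of 7) differed from these, and their part in the changes of the repair genes was not tested. Against the vehicle-treated mice of Day 0, 23 genes were called, 8 higher and 15 lower (36.4% of all genes called, 19.6% higher and 16.8% lower). There 2 of 11 recombination genes were higher, and 3 of 8 base excision and 3 of 3 mismatch and nucleotide excision genes were lower.

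**Figure D2:**
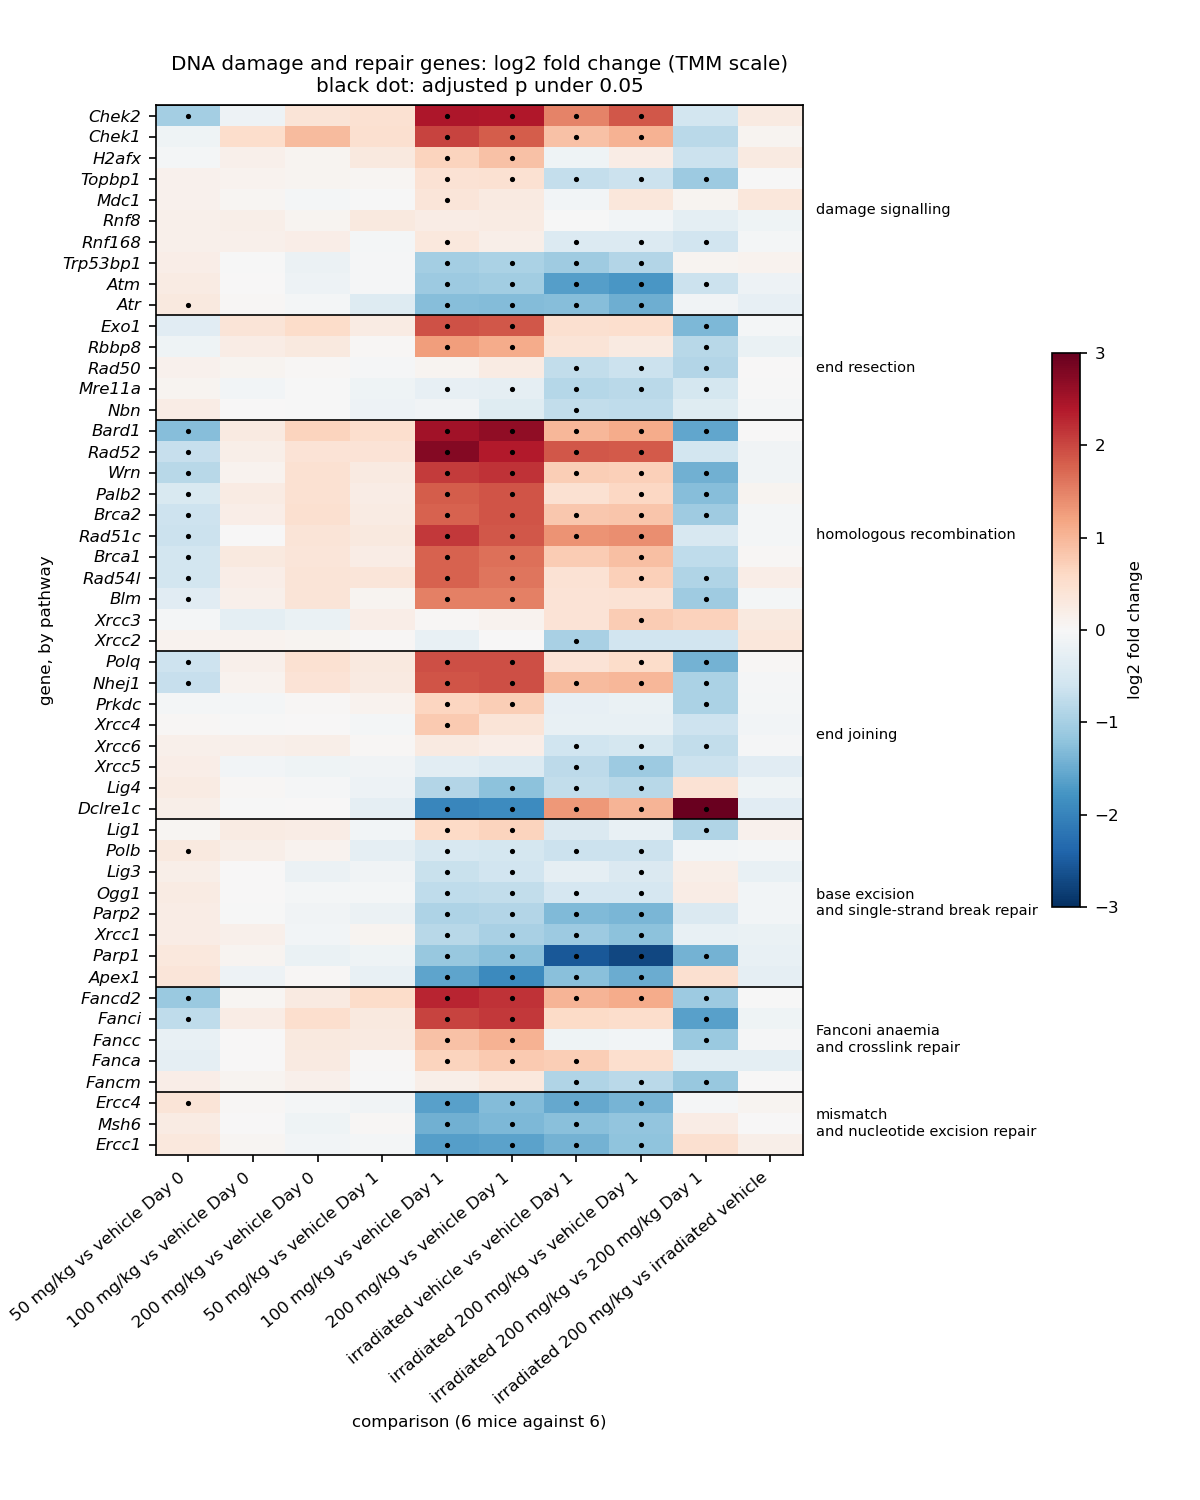
Log2 fold changes (colour, TMM scale) of the 50 genes, one line per gene ordered by pathway on the vertical axis, in 10 comparisons of 6 mice against 6 on the horizontal axis, with a black dot where the adjusted p was under 0.05. Most recombination and Fanconi genes are high at 100 and 200 mg/kg on Day 1, where base excision, mismatch and nucleotide excision genes are low. With total counts 8 of the 23 genes called higher at 200 mg/kg and 10 of the 26 at 100 mg/kg change sign.

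Without irradiation, mice given 200 mg/kg had higher levels of recombination, Fanconi anaemia and checkpoint kinase genes on Day 1 than vehicle-treated mice, on the TMM scale, and lower levels of base excision, mismatch and nucleotide excision genes. Of the 50 genes, 39 were called, 23 higher and 16 lower (63.5% of all 23513 genes called, 23.6% higher and 39.9% lower). The median log2 fold change was 0.29 over the 50 genes and -0.48 over all genes. With total counts the split was 9 higher and 34 lower (6.63% and 71.2% of all genes). All 16 lower genes were called lower on both scales. Total counts shifted all genes that way (median -1.96), so this agreement adds little. Of the higher genes, 9 were called higher on both (Bard1, Chek2, Brca2, Fancd2, Rad52, Fanci, Palb2, Wrn and Polq), and 8 changed sign (Lig1, Blm, Fanca, H2afx, Topbp1, Fancc, Prkdc and Rbbp8).

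In homologous recombination 9 of 11 genes rose on the TMM scale, with a median log2 fold change of 1.86. Only Xrcc2 (0.02 ± 0.23) and Xrcc3 (0.10 ± 0.22) did not pass the test. Bard1 lay between 37.2 and 57.5 CPM (median 51.5) with vehicle and between 212 and 421 CPM (median 287) at 200 mg/kg. The groups lay far apart, with a log2 fold change of 2.65 ± 0.18 (adjusted p = 2.63e-08), a 6.28-fold higher level, and 1.10 with total counts. Rad52 lay between 134 and 286 CPM (median 211) at 200 mg/kg, against 34.5 to 53.8 CPM with vehicle (2.38 ± 0.19, and 0.81 with total counts). Wrn rose by a log2 fold change of 2.17 ± 0.18.

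The same direction was seen for 4 of 5 Fanconi anaemia genes. Fancd2, which is placed on DNA at a crosslink, lay between 3.66 and 6.40 CPM (median 4.91) with vehicle and between 12.8 and 30.2 CPM (median 20.1) at 200 mg/kg, without overlap (2.18 ± 0.21). Its partner Fanci had a log2 fold change of 2.13 ± 0.21. In damage signalling, Chek2 lay between 21.7 and 42.8 CPM (median 31.9) at 200 mg/kg, against at most 7.55 CPM with vehicle (2.40 ± 0.17, adjusted p = 2.79e-08). Chek1 also rose (1.83 ± 0.25), whereas Atm (-1.05 ± 0.14), Atr (-1.30 ± 0.14) and Trp53bp1 (-0.95 ± 0.12) fell. In end joining, Polq, the polymerase of the alternative route (1.94 ± 0.19), and Nhej1 (1.92 ± 0.20) rose and Lig4 fell (-1.23 ± 0.18).

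Base excision repair, with 7 of 8 genes lower and 1 higher, and mismatch and nucleotide excision repair, with 3 of 3 lower, went the other way. Parp1 lay between 9.97 and 24.1 CPM (median 20.3) at 200 mg/kg, below all vehicle-treated mice (-1.25 ± 0.19, adjusted p = 6.82e-05). Apex1 had the largest fall of the 50 genes by fitted value, with -1.91 ± 0.31, but its level was low, with a median of 2.33 CPM for vehicle and 0.559 CPM at 200 mg/kg. Dclre1c lay between 13.8 and 17.8 CPM (median 15.0) with vehicle and between 2.55 and 5.64 CPM (median 3.49) at 200 mg/kg (-1.89 ± 0.20, adjusted p = 1.80e-06). The groups did not overlap. The exception among base excision genes, Lig1, which also joins the fragments of DNA replication, had 0.68 ± 0.17 on the TMM scale and changed sign with total counts.

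At 200 mg/kg on the TMM scale, 19 of the 50 genes lay wholly above and 14 wholly below vehicle (16.5% and 30.5% of all genes). With total counts 4 lay wholly above (Chek2, Bard1, Wrn and Fancd2) and 32 wholly below (3.7% and 58.2%). At 100 mg/kg on Day 1, compared with the same vehicle-treated mice, 42 genes were called, 26 higher and 16 lower (65.6% of all genes called, 25.0% higher and 40.6% lower). With total counts 14 were higher and 33 lower (7.72% and 68.5% of all genes). Rad52 (2.75 ± 0.14), Bard1 (2.52 ± 0.12), Chek2 (2.44 ± 0.14) and Fancd2 (2.28 ± 0.15) led the rises, and Dclre1c (-1.97 ± 0.14), Ercc1 (-1.65 ± 0.23) and Ercc4 (-1.63 ± 0.21) the falls. At 200 mg/kg on Day 1, 18 of 20 cell cycle genes, 8 of 8 red cell and reticulocyte markers and 7 of 7 platelet markers were higher, and 8 of 8 B cell and 8 of 8 T cell markers were lower, all on the TMM scale, and 0 of 6 NK cell markers were called. Their part in the changes of the repair genes was not tested. Among genes with a promoter window, the E2F letters were present for 11 of 17 that were higher at 200 mg/kg, 3 of 15 that were lower and 6 of 8 that were not called.

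**Figure D3:**
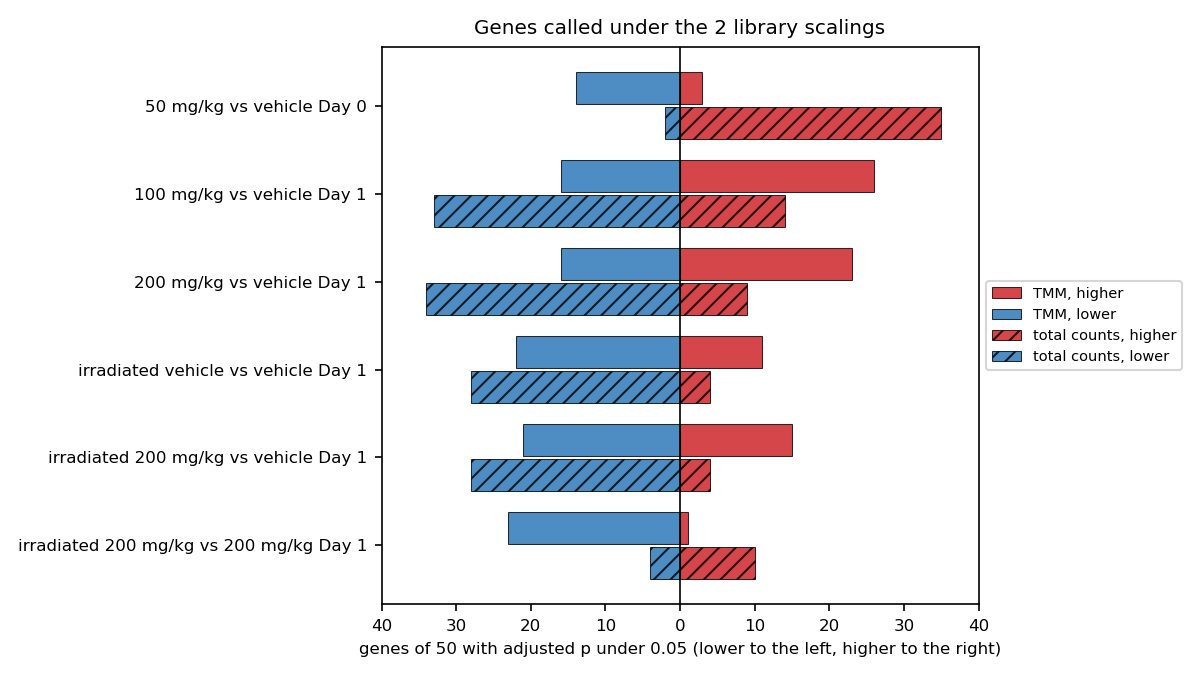
Number of the 50 genes with an adjusted p under 0.05 (horizontal axis, lower genes to the left and higher genes to the right) in each of 6 comparisons (vertical axis), with libraries scaled by TMM or by total counts (bars). At 200 mg/kg on Day 1 the split is 23 higher and 16 lower with TMM and 9 higher and 34 lower with total counts.

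**Figure D4:**
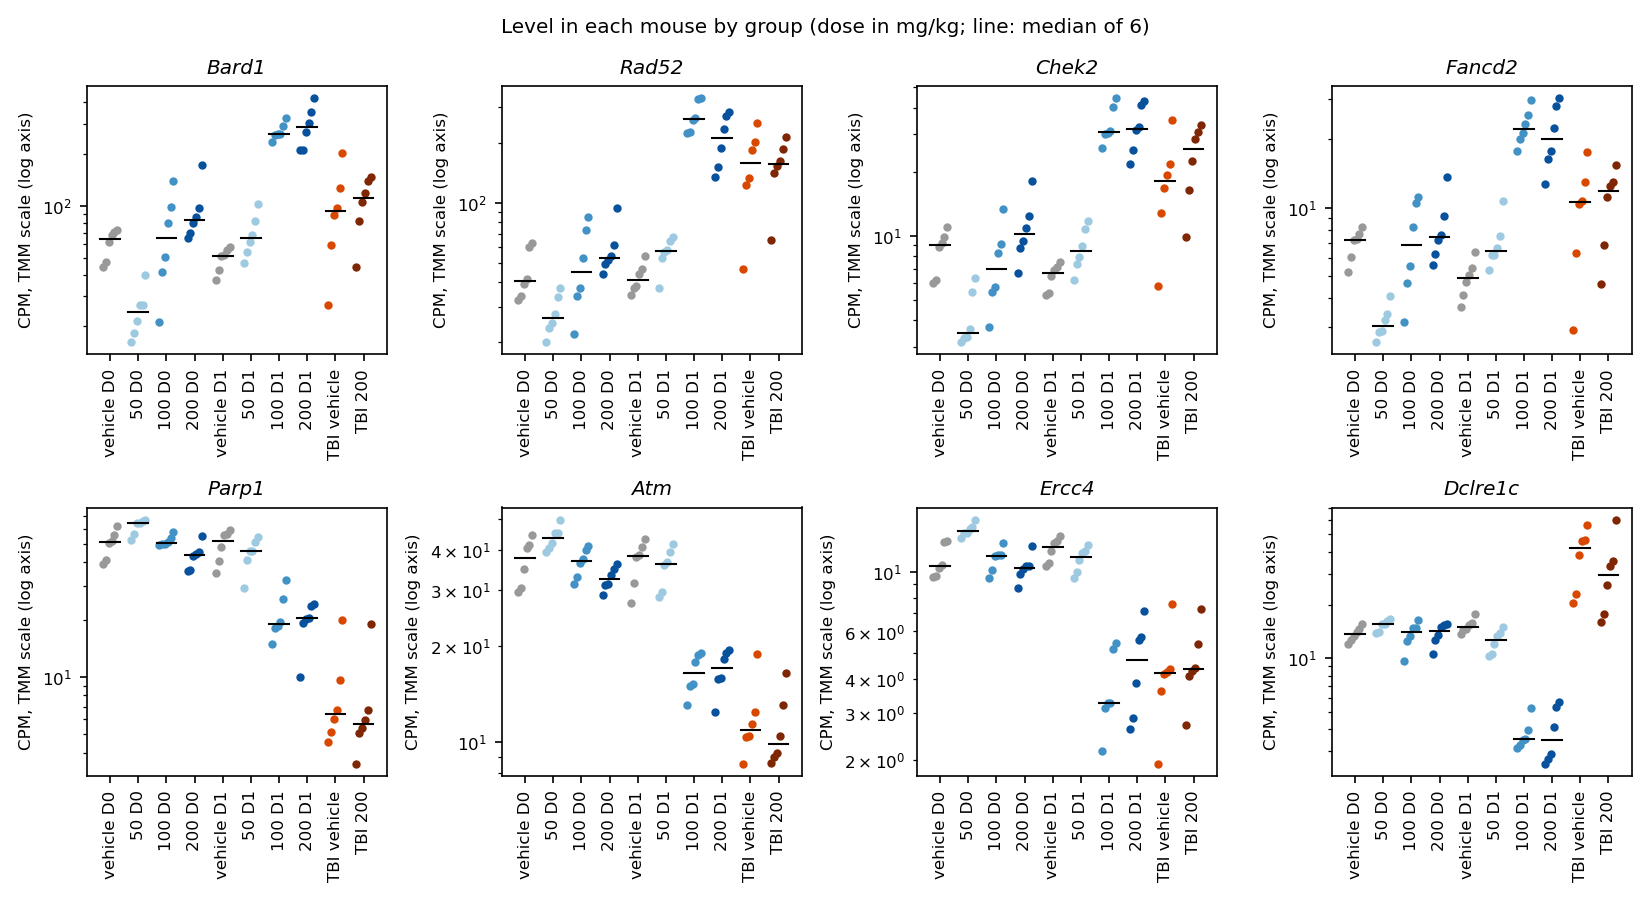
Level of 8 genes in each mouse (points, CPM on the TMM scale, log axis) by group on the horizontal axis, with the median of 6 mice as a line. Bard1, Rad52, Chek2 and Fancd2 are high at 100 and 200 mg/kg on Day 1 and widely spread after irradiation, Parp1, Atm and Ercc4 are low in these groups, and Dclre1c is low at 100 and 200 mg/kg on Day 1 (2.55 to 5.64 CPM) and high after irradiation (16.0 to 60.4 CPM).

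Irradiation was also compared at 200 mg/kg, between irradiated and unirradiated mice of Day 1, which shares no mouse with the comparison of the vehicle groups. On the TMM scale 6 of 11 recombination and 4 of 5 Fanconi genes fell, and Dclre1c was the only gene called higher, against 10 higher with total counts. Of the 50 genes, 24 were called, 1 higher and 23 lower (27.2% of all 23610 genes called, 17.6% higher and 9.58% lower). The median log2 fold change was -0.63 over the 50 genes and 0.41 over all genes. With total counts the median of all genes was 1.31 and the split was 10 higher and 4 lower (46.5% and 2.28% of all genes), the lower genes being Bard1, Fanci, Wrn and Polq, with 6 of the 23 lower genes changing sign.

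Dclre1c lay between 2.55 and 5.64 CPM (median 3.49) at 200 mg/kg and between 16.0 and 60.4 CPM (median 29.5) after irradiation at this dose. All irradiated mice lay above all unirradiated mice, with a log2 fold change of 2.97 ± 0.35 (adjusted p = 9.78e-05), a 7.82-fold higher level, and 3.83 with total counts. In vehicle-treated mice the irradiated range was 20.5 to 56.6 CPM (median 42.1), and the log2 fold change was 1.31 ± 0.24 (adjusted p = 0.000869), or 0.90 with total counts. Dclre1c was thus higher in the irradiated mice of both settings on both scales, from a lower starting level at 200 mg/kg. On the TMM scale it was the only one of the 50 genes wholly above in this comparison, and 15 lay wholly below (11.6% and 5.65% of all genes). With total counts 6 lay wholly above (Mdc1, Xrcc3, Lig4, Dclre1c, Ogg1 and Lig3) and 3 wholly below (24.9% and 1.36%). The gene overlaps Suv39h2, a histone methyltransferase, and the strand setting of the counting was not given in the sources used here, so reads of the pair may be mixed. Suv39h2 had 0.92 ± 0.27 (adjusted p = 0.0146) after irradiation of vehicle-treated mice and 0.83 ± 0.31 (adjusted p = 0.0645) at 200 mg/kg.

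Bard1 lay between 212 and 421 CPM at 200 mg/kg and between 44.3 and 147 CPM (median 112) after irradiation at that dose, without overlap (-1.56 ± 0.29, adjusted p = 0.00159, and -0.71 with total counts). Fanci (-1.62 ± 0.34), Wrn (-1.45 ± 0.24), Parp1 (-1.42 ± 0.37), Polq (-1.41 ± 0.27), Exo1 (-1.36 ± 0.31) and Palb2, which joins Brca1 to Brca2 (-1.29 ± 0.25), also fell on the TMM scale. Of the end resection genes 4 of 5 fell. None of the 3 mismatch and nucleotide excision genes passed the test (-0.03 to 0.47), and 2 of 8 base excision genes did, Parp1 and Lig1, both lower. Without 200 mg/kg mouse 45 the count of called genes was 15, and the share of all genes was not counted in that fit. In the same comparison on the TMM scale, 14 of 20 cell cycle genes, 5 of 8 red cell and reticulocyte markers, 8 of 8 B cell markers and 1 of 8 T cell markers were lower. In contrast, 15 of 16 p53 targets and 5 of 8 neutrophil markers were higher, and monocyte markers were divided (2 higher and 1 lower of 7). With total counts the cell cycle list overlapped (3.81 to 4.21 without and 3.49 to 4.07 with irradiation). The part of these lists in the changes was not tested.

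Side by side, 1 gene was higher in both irradiation comparisons (Dclre1c), 8 were lower in both (Atm, Fancm, Mre11a, Parp1, Rad50, Rnf168, Topbp1 and Xrcc6), and 5 were higher with vehicle and lower at 200 mg/kg on the TMM scale (Bard1, Brca2, Fancd2, Nhej1 and Wrn). Of the 8 that were lower in both, Atm, Mre11a, Rad50, Rnf168 and Xrcc6 changed sign at 200 mg/kg with total counts. Fancm, Parp1 and Topbp1 kept their sign there but were not called. The 5 genes higher with vehicle and lower at 200 mg/kg were not called higher with vehicle on total counts. Of these, Bard1 and Wrn were called lower at 200 mg/kg on both scales. The interaction tests the difference between the irradiation effects directly. The same contrast is the 200 mg/kg effect in irradiated mice minus that in unirradiated mice of Day 1. Fitted separately, the former was called for 0 of the 50 genes (-0.34 to 0.35) and the latter for 39. For Bard1 these 2 effects were 0.02 and 2.65. The interaction was called for 31 of 50 genes, 13 with a higher and 18 with a lower effect at 200 mg/kg (33.9% of all genes, 21.9% higher and 12.1% lower). With total counts 31 were higher and 3 lower (46.4% and 3.03%). The 18 included Bard1 (-2.41 ± 0.46), Rad52 (-2.26 ± 0.42), Wrn (-2.06 ± 0.36), Fanci (-2.05 ± 0.50), Fancd2 (-1.96 ± 0.45) and Chek2 (-1.90 ± 0.43), of which Bard1, Rad52 and Wrn were called on both scales. The 13, all called on both scales, included Ercc1 (2.02 ± 0.48), Apex1 (1.86 ± 0.65), Dclre1c (1.78 ± 0.41), Ercc4 (1.60 ± 0.41), Msh6 (1.58 ± 0.33) and Atm (1.11 ± 0.28). Total counts shifted all genes in the direction of these 13 (median 1.68, against 0.60 with TMM), so their agreement adds little. For Parp1 the interaction missed the threshold (1.26 ± 0.54, adjusted p = 0.0767).

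**Figure D5:**
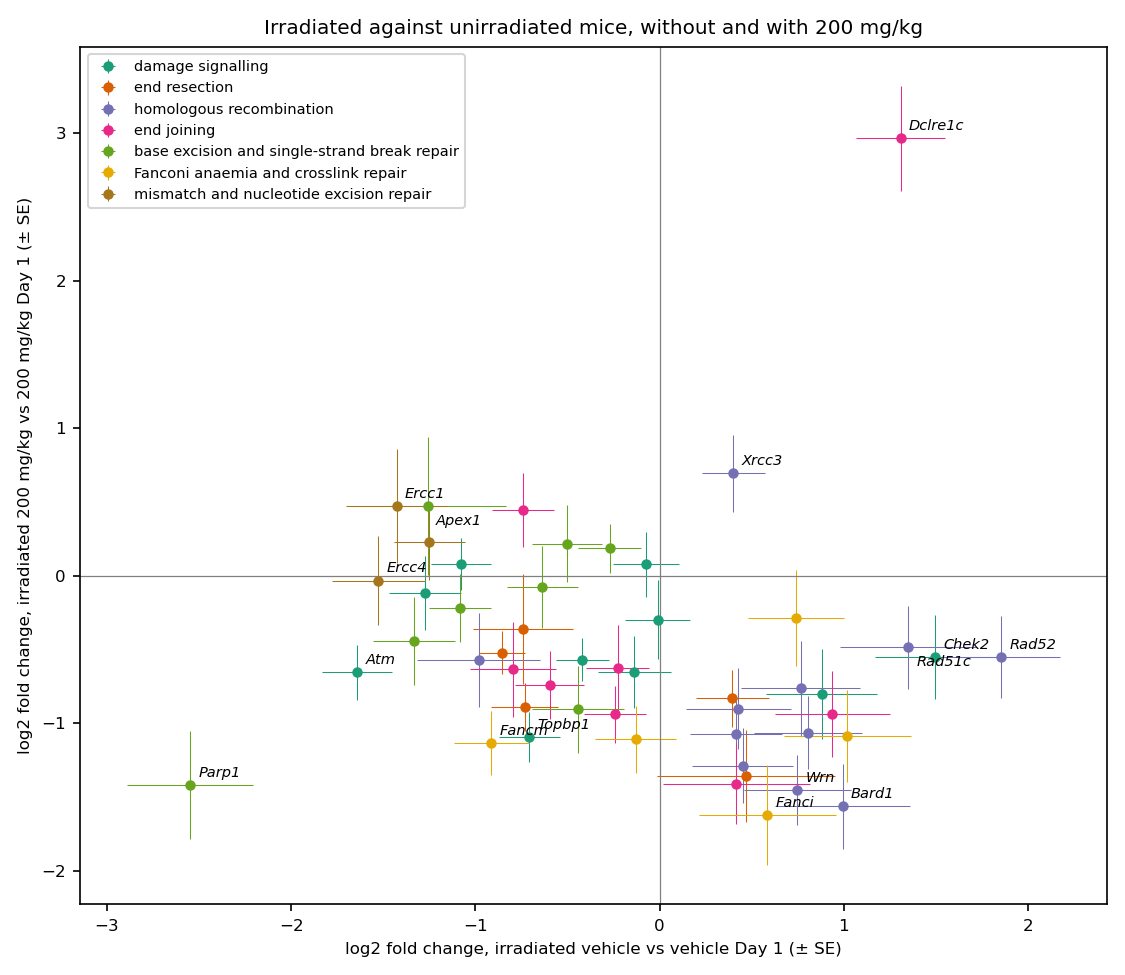
Log2 fold change of each of the 50 genes after irradiation of vehicle-treated mice (horizontal axis) and of mice given 200 mg/kg (vertical axis), TMM scale, with the standard error as bars and colour by pathway. Dclre1c lies high on both axes (1.31 and 2.97), Parp1 low on both (-2.55 and -1.42), and Bard1 lies at 0.99 and -1.56. With total counts 6 of the 23 genes called lower at 200 mg/kg change sign.

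In the direct comparison of the irradiated groups no gene passed the test. With edgeR, 0 of the 50 genes were called and 0 had an unadjusted p under 0.05 (0.0% of all genes called), and DESeq2 called 0. The log2 fold changes ran from -0.34 to 0.35. For 40 of the 50 genes the 95% interval of the difference, taken with 10 residual degrees of freedom, lay within a log2 fold change of 1 in either direction. The intervals ran from -0.90 to 0.94 for Bard1, from -0.89 to 0.70 for Rad52, from -1.11 to 0.42 for Dclre1c and from -1.31 to 0.86 for Parp1. The widest was that of Apex1, from -1.51 to 0.97. Differences within these intervals were not excluded. Against unirradiated vehicle-treated mice of Day 1, the irradiated mice given 200 mg/kg had 36 genes called, 15 higher and 21 lower (49.3% of all genes called, 25.2% higher and 24.1% lower). With total counts the split was 4 higher and 28 lower (13.6% and 33.6% of all genes). That comparison shares its controls with the irradiated vehicle-treated mice. Chek2 (1.86), Rad52 (1.85) and Parp1 (-2.74) had log2 fold changes in the same directions there.

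At the lowest dose, recombination genes fell on Day 0 on the TMM scale. At 50 mg/kg on Day 0, 17 of the 50 genes were called against vehicle of Day 0, 3 higher and 14 lower (14.1% of all 24485 genes called, 4.21% higher and 9.87% lower). A single fit of all 60 mice called 4 genes, all lower, and leaving out 1 mouse at a time gave 2 to 7 higher calls, with 7 without vehicle mouse 14. The share of all genes was not counted in these fits. The 14 lower genes included 9 of the 11 recombination genes. With total counts, where the median of all genes was 0.69, the split was 35 higher and 2 lower (49.4% and 3.61% of all genes), the lower genes being Bard1 and Fancd2, and 6 of the 14 lower genes changed sign. Bard1 lay between 44.4 and 72.5 CPM (median 64.7) with vehicle and between 16.2 and 39.8 CPM (median 24.1) at 50 mg/kg. The groups did not overlap (-1.28 ± 0.20, adjusted p = 0.00256, and -0.63 with total counts). Fancd2 lay between 5.22 and 8.23 CPM with vehicle and between 2.57 and 4.12 CPM at 50 mg/kg (-1.12 ± 0.14, adjusted p = 0.00255). Chek2 had -1.01 ± 0.21. The 3 higher genes were Ercc4 (0.39 ± 0.09), Atr (0.30 ± 0.08) and Polb (0.30 ± 0.07), called on both scales. On the TMM scale 2 of the 50 genes lay wholly above and 6 wholly below vehicle (2.53% and 4.41% of all genes), against 24 and 2 with total counts (22.4% and 1.19%).

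All 14 genes lower at 50 mg/kg on Day 0 were higher at 200 mg/kg on Day 1, and the 3 higher genes were lower there, on the TMM scale and in different mice. At 50 mg/kg on Day 0, 13 of 20 cell cycle genes, 7 of 7 platelet markers and 4 of 8 red cell and reticulocyte markers were lower and 5 of 8 B cell markers were higher, and their part in these values was not tested. On Day 1, edgeR called 0 genes at 50 mg/kg (0.00829% of all genes), with an unadjusted p under 0.05 for 11, and DESeq2 called 5 (5.17% of all genes). Bard1 had 0.50 ± 0.17 and Fancd2 0.54 ± 0.17 there. The interaction of the dose with the day was called for 21 genes at 50 mg/kg, 14 higher and 7 lower on Day 1 (17.5% of all genes, 10.5% higher and 7.04% lower), against 2 and 34 with total counts (3.02% and 48.9%).

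At the higher doses the genes were called on Day 1 and not on Day 0. On Day 0, 0 of the 50 genes were called at 200 mg/kg (11 with an unadjusted p under 0.05, 0 by DESeq2) and 0 at 100 mg/kg (1 with an unadjusted p under 0.05, 0 by DESeq2), with 0.0% of all genes called at either dose. Chek1 had the largest difference at 200 mg/kg on Day 0 (0.94 ± 0.25, adjusted p = 0.546). The interaction with the day was called for 36 genes at 200 mg/kg, 21 higher and 15 lower on Day 1 (48.8% of all genes, 18.7% higher and 30.2% lower), and for 37 genes at 100 mg/kg, 22 higher and 15 lower (54.2%, 20.7% higher and 33.5% lower). With total counts these splits were 5 higher and 33 lower (4.47% and 57.8% of all genes), and 6 higher and 32 lower (5.51% and 60.0%). Bard1, Chek2, Fancd2, Rad52 and Wrn were called higher on Day 1 on both scales at both doses, and all 15 lower genes were called on both scales. For the lower genes this adds little, as total counts shifted all genes down (median -1.58 at 200 mg/kg and -1.83 at 100 mg/kg).

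Further repair genes outside the 50 were counted from a list of 104, of which 99 were matched and 98 tested. On the TMM scale, 14 were higher and 43 lower after irradiation of vehicle-treated mice (24.4% and 22.4% of all genes). After irradiation at 200 mg/kg, 8 were higher and 44 lower (17.6% and 9.58% of all genes). The largest differences with vehicle were those of the glycosylase Mutyh (-2.56 ± 0.26), the replicative polymerase subunit Pold1 (-2.28 ± 0.17), the alkyl transferase Mgmt (2.22 ± 0.20), Dntt, which adds bases at rearranging antigen receptor genes (-2.20 ± 0.63), and the single-strand binding protein Rpa1 (-1.63 ± 0.19). At 200 mg/kg they were Dntt (-3.31 ± 0.80), the glycosylase Neil2 (3.17 ± 1.10), the lesion sensor Xpc (1.98 ± 0.30), Rad54b (-1.67 ± 0.28) and Apex2 (-1.63 ± 0.35). Without irradiation, 36 were higher and 38 lower at 200 mg/kg on Day 1 (23.6% and 39.9% of all genes). At 100 mg/kg on Day 1, 36 were higher and 39 lower (25.0% and 40.6%). At 50 mg/kg on Day 0, 9 were higher and 18 lower (4.21% and 9.87%). These further genes were not counted with libraries scaled by total counts.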

How the data were processed

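Whole blood RNA of 60 mice was sequenced. Per the submitters' processing notes, Trimmomatic 0.36, STAR 2.5.2b (build GRCm38) and Subread 1.5.2 were used by the authors, and the deposited counts are whole reads per gene without normalization. The annotation release and the strand setting were not given in the sources used here. The labels name poly(A) selection, whereas the study's methods describe ribosomal and globin RNA depletion. Further deposited columns hold a signal (counts divided by size factors), log2 fold changes and p-values that the authors computed with DESeq2, and none of these was used.

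Mice were grouped by their labels. Each pair of groups was fitted with edgeR 4.0.16 (quasi-likelihood test, TMM, R 4.3.3, limma 3.58.1), keeping genes whose counts summed to at least 10, with Benjamini-Hochberg adjustment over all genes tested, and interactions in fits of 24 mice. The standard error is the log2 fold change divided by the square root of F. Alternatives were total-count scaling, DESeq2 1.42.0, other filters, 1 fit of all 60 mice, libraries without albumin above 100 CPM and leaving out each mouse. The fitting was tested on simulated data. No library repeated another of its group (chi-square per gene at least 11.99). The fold changes printed in full are the largest of their pathway and direction, up to 2 each. Other genes are given by shorter values. The genes, the lists and the rule were chosen with earlier results of these data known.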

Additional observations from a re-analysis of the deposited data

Results flagged for a closer look

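Each of 15 genes was checked in the 10 groups of 6 mice, 150 checks in all. In 18 checks a mouse lay far from the other 5 by Dixon's test at the 95% level. Chance gives about 1 in 20 for a single check. These checks shared mice and the genes were taken for their large changes, so the count cannot be set against that rate. At 200 mg/kg on Day 0, mouse 22 was the highest for Bard1 (173 CPM), Wrn (139 CPM), Rad52 (94.3 CPM), Fanci (11.7 CPM) and Rad51c (11.4 CPM). The same mouse was the highest of its group in the red cell (12.57) and cell cycle (4.59) lists. In irradiated vehicle-treated mice, mouse 51 was the highest for Parp1 (20.0 CPM), Atr (16.2 CPM), Polb (11.5 CPM) and Apex1 (2.70 CPM), and in irradiated mice given 200 mg/kg, mouse 57 was the highest for Parp1 (18.9 CPM), Atr (14.6 CPM), Polb (12.4 CPM), Ercc1 (3.25 CPM) and Apex1 (1.93 CPM). Mouse 51 and mouse 57 had the highest albumin of their groups (16100 and 5630 CPM). The remaining values far from their groups were those of Parp1 in mouse 47 at 200 mg/kg on Day 1 (9.97 CPM), of Apex1 in mouse 14 (2.52 CPM) and Polb in mouse 15 (6.69 CPM) with vehicle on Day 0, and of Polb in mouse 12 at 100 mg/kg on Day 0 (7.64 CPM). The part of these markers in the values was not tested.

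The effect of irradiation differed between vehicle and 200 mg/kg, by a test of the difference, for 13 of these 15 genes on the TMM scale. The 15 were taken for their large changes, and 33.9% of all genes were called. It was lower at 200 mg/kg for Bard1 (-2.41), Rad52 (-2.26), Wrn (-2.06), Fanci (-2.05), Fancd2 (-1.96), Chek2 (-1.90) and Rad51c (-1.69), and higher for Ercc1 (2.02), Apex1 (1.86), Dclre1c (1.78), Ercc4 (1.60), Atr (1.28) and Atm (1.11), on the log2 scale. With total counts Fanci, Fancd2, Chek2 and Rad51c were not called, and the other 9 were. Between the irradiated groups 0 of the 50 genes were called, against 39 between 200 mg/kg and vehicle on Day 1 without irradiation.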

How the results depend on the processing

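The counts of called genes stayed within 1.5 times under most alternatives. The exceptions were as follows. With total counts, 14 genes were called for irradiation at 200 mg/kg (24 with TMM), 37 at 50 mg/kg on Day 0 (17) and 36 for the interaction of 50 mg/kg with the day (21). The shares of all genes called also moved, to 48.8% (27.2% with TMM), 53.0% (14.1%) and 51.9% (17.5%). In 1 fit of all 60 mice, 4 genes were called at 50 mg/kg on Day 0 and 4 for that interaction. Without the libraries of high albumin, 38 genes were called for irradiated vehicle-treated mice against vehicle of Day 0 (23). There 57.1% of all genes were called, against 36.4% with all libraries. DESeq2 called 5 at 50 mg/kg on Day 1 (0) and 2 between the vehicle groups (0), with 5.17% and 3.19% of all genes called. Leaving out 1 mouse at a time gave 22 to 39 genes for irradiation with vehicle, 15 to 25 for irradiation at 200 mg/kg, and 14 to 21 for 50 mg/kg on Day 0. For the unirradiated mice of Day 1 the range was 38 to 44 with 200 mg/kg and 40 to 42 with 100 mg/kg. The shares of all genes were not counted without 1 mouse or in the fit of all 60 mice. The 15 genes taken for their large changes gave 84 called values. Of these, 69 kept direction and call with total counts, 14 lost the call and 1 reversed. The reversal was Atm after irradiation at 200 mg/kg, 0.28 with total counts against -0.65 with TMM (adjusted p = 0.452). With DESeq2 all 84 kept both. Over all 50 genes more calls changed sign with total counts. On Day 1 these were 8 at 200 mg/kg and 10 at 100 mg/kg. There were 6 at 50 mg/kg on Day 0 and 6 after irradiation at 200 mg/kg. The cause was not tested. No paired analysis was possible because each mouse had its own number, and the groups shared none.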
